A study of Mus musculus with 8 samples.

Results

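Macrophages stimulated with 2 ligands of Toll-like receptors (TLR), MALP2 and CpG DNA, were set against macrophages stimulated with 2 inflammatory cytokines, TNFa and IL1b. A gene belonged to this comparison when its expression in both TLR ligand libraries lay above, or in both lay below, its expression in both cytokine libraries. By that rule 9398 of the 36360 genes with an accepted estimate in all 4 libraries were members, 4008 with the TLR ligands higher and 5390 with them lower, out of 36806 gene lines in all. The measured levels chose the members, so the levels and differences below describe 4 libraries and carry no test.

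Poly(A) RNA was sequenced from bone marrow-derived macrophages of C57BL/6 mice, grown for 7 days with medium conditioned by L929 fibroblasts, a source of the macrophage growth factor CSF1. A culture without added agent was the untreated control. The 4 stimulated cultures received 1 agent each for 4 h: MALP2 at 1 ng/ml, CpG DNA at 100 nM, TNFa at 10 ng/ml or IL1b at 10 ng/ml. IFNg at 100 ng/ml, IL4 at 10 ng/ml and TGFb1 at 1 ng/ml, also given for 4 h, made up the remaining 3 libraries of the series. Each agent had 1 library, so no value has a replicate check, and the 2 libraries of a side are different agents rather than replicates. The doses were single and in different units, so potency was not compared.

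MALP2 is a diacylated lipopeptide of mycoplasma that is sensed at the cell surface by the receptor pair Tlr2 and Tlr6, and unmethylated CpG DNA is sensed in endosomes by Tlr9. Both receptors recruit the adaptor Myd88, as does the IL1 receptor, whereas the TNF receptors signal through Tradd, Ripk1 and Traf2. All of these routes lead to the kinase complex that releases NF-kB from its inhibitors and to MAP kinases. In macrophages this programme is known for the transcription of cytokines, chemokines and antimicrobial proteins, together with inhibitors that limit it.

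Levels are given as FPKM, a fragment count scaled by transcript length and library size. The authors scaled each table separately, and levels were joined here through the untreated library that every table contains. The gap of a gene is the distance between the sides: the lower of the 2 libraries of the higher side over the higher of the 2 libraries of the other side, on the FPKM + 1 scale. Of 12553 genes that reached 1 FPKM in at least 1 of the 4 libraries, 2887 (23%) had the TLR ligands higher by any gap and 3753 (29.9%) had them lower. The remaining 2758 members stayed below that level and are not described. A gap of at least 2-fold was found for 149 genes with the TLR ligands higher (1.19%) and 32 with them lower (0.255%). Of these, 134 and 19 were protein-coding, and 5 and 11 were genes of short RNAs (snoRNA, snRNA or miRNA), for which FPKM of a poly(A) library jumps between 0 and high values. Of the 12553 genes tested, 10120 were protein-coding, and 12399 were left when short RNAs were dropped. Leaving out 1 library at a time, which relaxes the rule, gave between 205 and 326 higher genes and between 48 and 180 lower ones, with the highest counts when TNFa was left out.

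**Figure D1:**
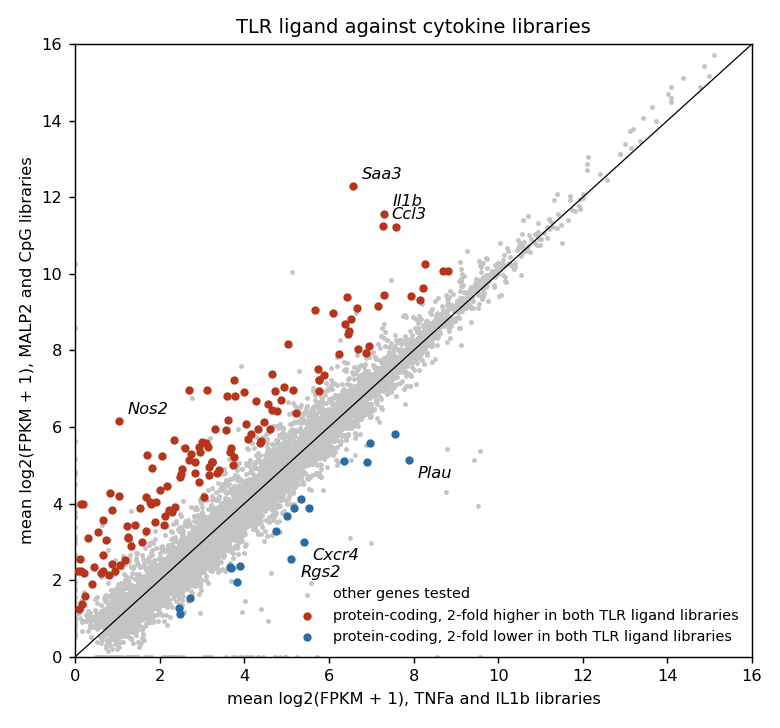
Expression of the 12553 genes tested. The x axis is the mean log2(FPKM + 1) of the TNFa and IL1b libraries and the y axis that of the MALP2 and CpG libraries, with equality as the black line. Red and blue points are the 134 and 19 protein-coding genes whose sides lie at least 2-fold apart; the red points reach much farther from the line than the blue ones, with Saa3 farthest.

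The 4 genes taken as markers of the comparison were on the sides their choice implies. Saa3 encodes an acute-phase serum amyloid A (ENSMUSG00000040026, mm9 chromosome 7, 53967368 to 53971046). Its level was 9.98 FPKM untreated, 4717 FPKM after MALP2, 5358 FPKM after CpG, 184 FPKM after TNFa and 47.6 FPKM after IL1b, with authors' confidence bounds of 1355 to 8079 for MALP2 and 80.8 to 288 for TNFa. Saa3 was thus raised over the untreated library by all 4 agents, and the sides lay 25.5-fold apart. Nos2, the inducible nitric oxide synthase (ENSMUSG00000020826, mm9 chromosome 11, 78734289 to 78773756), had 0.053 FPKM untreated, 40.9 FPKM after MALP2, 121 FPKM after CpG, 1.07 FPKM after TNFa and 1.04 FPKM after IL1b. It was near 1 FPKM after either cytokine and lay 20.3-fold higher after the TLR ligands. Ccl3, a chemokine for monocytes and T cells (ENSMUSG00000000982, mm9 chromosome 11, 83461346 to 83462857), had 132 FPKM untreated, 2350.4 FPKM after MALP2, 2528 FPKM after CpG, 109.6 FPKM after TNFa and 213 FPKM after IL1b. Its 2 cytokine libraries lay around the untreated level and the TLR ligand libraries 11-fold above them. Plau, the urokinase-type plasminogen activator (ENSMUSG00000021822, mm9 chromosome 14, 21655884 to 21662610), went the other way, with 28.2 FPKM untreated, 29.1 FPKM after MALP2, 41 FPKM after CpG, 186 FPKM after TNFa and 299 FPKM after IL1b. After MALP2 and CpG it stayed within 2-fold of the untreated library, and the cytokine libraries lay 4.46-fold higher. For all 4 of these genes the authors' bounds of one side did not overlap those of the other, which held for 80 of the 149 higher genes and 6 of the 32 lower ones. By bounds alone, at any gap, 0.797% of the genes tested were higher and 0.143% lower.

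The promoters of 5 higher genes with matches to the NF-kB binding sequence are shown with that of the leading gene Saa3, to set genes of different roles side by side. The 5 are the neutrophil chemokines Cxcl1, Cxcl2 and Cxcl3, the NF-kB inhibitor Nfkbia and the cytokine Il6. Each line gives the bases that end just before the annotated transcription start, 5′ to 3′ on the strand of the gene, from RefSeq on GRCm38.p6 (a later build than the mm9 of the expression tables). Capitals mark matches to the kappaB motif on either strand. In Saa3, which has none in the stretch shown, they mark the interferon response element core. The regions are chr5:90891145-90891244 (plus strand), chr5:90903799-90903898 (plus strand), chr5:90786001-90786100 (plus strand), chr12:55492648-55492747 (minus strand), chr5:30013014-30013113 (plus strand) and chr7:46715677-46715826 (minus strand), in that order.
Cxcl1: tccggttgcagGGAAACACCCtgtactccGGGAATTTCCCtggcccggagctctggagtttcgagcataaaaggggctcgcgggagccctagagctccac
Cxcl2: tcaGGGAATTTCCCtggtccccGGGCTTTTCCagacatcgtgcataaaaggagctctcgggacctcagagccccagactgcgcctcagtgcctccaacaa
Cxcl3: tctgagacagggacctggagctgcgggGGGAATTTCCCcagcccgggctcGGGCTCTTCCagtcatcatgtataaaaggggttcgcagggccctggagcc
Nfkbia: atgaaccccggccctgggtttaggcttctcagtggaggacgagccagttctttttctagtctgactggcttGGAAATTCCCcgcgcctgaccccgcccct
Il6: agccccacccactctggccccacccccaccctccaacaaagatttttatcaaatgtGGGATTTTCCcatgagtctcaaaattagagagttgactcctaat
Saa3: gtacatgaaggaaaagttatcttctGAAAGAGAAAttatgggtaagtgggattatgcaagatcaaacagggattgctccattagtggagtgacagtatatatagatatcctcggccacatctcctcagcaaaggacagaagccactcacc
In the 3 chemokine promoters the stretch GGGAATTTCCC matches on both strands, offset by 1 base, and each of the 3 holds another kappaB match nearby. The nearest match began 70 bases before the start in Cxcl1, 78 in Cxcl2 and 50 in Cxcl3, and the single matches began 29 bases before it in Nfkbia and 44 in Il6. Promoters were found for 106 of the 134 higher genes (139 promoters) and 14 of the 19 lower ones (22 promoters). In the 250 bases before the start, kappaB matched in 14 of the 139 (10.1%) and in none of the 22, against 5.22% of the promoters of all genes tested and 4.65% of all promoters in the table. The AP-1 sequence TGANTCA also matched in 14 of the 139 (10.1%) and in none of the 22, against 4.67% of the genes tested and 6.75% of all. The interferon element matched in 9 (6.47%) of the higher promoters and 2 (9.09%) of the lower, against 2.89% and 2.98%. The cyclic AMP element TGACGTCA matched in 3 (2.16%) and 1 (4.55%), against 2.53% and 1.55%. All 4 motifs were searched on both strands, a promoter with several matches counts once, and matches of different motifs were counted separately even where they share bases. Genes with several starts have overlapping windows, and a match of letters is a description, not a measured binding site.

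The receptors of the agents were looked at first among the genes of the pathways. Tlr2, the receptor of lipopeptides, had 70.6 FPKM untreated, 401 FPKM after MALP2, 466 FPKM after CpG, 446 FPKM after TNFa and 401 FPKM after IL1b. All 4 agents raised it and the sides overlapped. Its partner Tlr6 had 9.44 FPKM untreated, 13.7 FPKM after MALP2, 13.4 FPKM after CpG, 10.5 FPKM after TNFa and 8.56 FPKM after IL1b, with the TLR ligands higher by a gap of 0.32 on the log2 scale, under 2-fold. Tlr9, the CpG receptor, had 50.8 FPKM untreated, 11 FPKM after MALP2, 7.22 FPKM after CpG, 5.54 FPKM after TNFa and 10.2 FPKM after IL1b, lower than untreated in all 4 and overlapping between the sides. Tnfrsf1b, the TNF receptor without a death domain, had 239 FPKM untreated, 1556 FPKM after MALP2, 1528 FPKM after CpG, 847 FPKM after TNFa and 450.1 FPKM after IL1b. It was above untreated in each library with the TLR ligands highest, at a gap of 0.85, while Tnfrsf1a, the receptor with the death domain, had 96.1 FPKM untreated, 154 FPKM after MALP2, 148 FPKM after CpG, 95.2 FPKM after TNFa and 96.9 FPKM after IL1b. Il1r1, the signalling receptor of IL1b, was scarce, with 0.289 FPKM untreated, 1.36 FPKM after MALP2, 2.65 FPKM after CpG, 0.624 FPKM after TNFa and 0.697 FPKM after IL1b, and its partner Il1rap had 1.91 FPKM untreated, 3.49 FPKM after MALP2, 5.48 FPKM after CpG, 4.02 FPKM after TNFa and 3.29 FPKM after IL1b. Of the 4 stimulated libraries compared, Il1r1 passed 1 FPKM in the 2 with a TLR ligand, and Il1rap overlapped between the sides.

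Of the 29 TLR and Myd88 pathway genes tested, 11 were higher and 7 lower by any gap, beside 23% and 29.9% of all genes. By 2-fold 1 was higher and 2 lower, beside 1.19% and 0.255%. The 1 higher gene was Map3k8, a kinase that activates the ERK pathway, at 15.1 and 29.2 FPKM after MALP2 and CpG against 3.02 and 4.09 FPKM after TNFa and IL1b. The 2 lower ones were Tlr13, the sensor of bacterial ribosomal RNA, and Cd36, a scavenger receptor that assists the Tlr2 and Tlr6 pair. Tlr13 was 97.5 FPKM untreated, 32.5 FPKM after MALP2, 34.9 FPKM after CpG, 79 FPKM after TNFa and 82.2 FPKM after IL1b, so its cytokine libraries stayed near untreated and its TLR ligand libraries fell below. The median difference of the list, the mean of MALP2 and CpG minus the mean of TNFa and IL1b in log2(FPKM + 1), was 0.06, against -0.03 over all genes tested. Of 18 genes of the TNF and IL1 receptor pathways, 7 were higher and 4 lower by any gap, beside the same 23% and 29.9% of all genes. None passed 2-fold, beside 1.19% and 0.255%, and the median difference was 0.20.

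Most inflammatory cytokine genes stood higher after the TLR ligands. Of 22 tested, 16 were higher and 1 lower by any gap, beside 23% and 29.9% of all genes. By 2-fold 12 and 0 were, beside 1.19% and 0.255%, and the median difference was 1.84. Il1b, which encodes the precursor of the pyrogenic cytokine IL1 beta, had 3.87 FPKM untreated, 3018 FPKM after MALP2, 3078 FPKM after CpG, 154 FPKM after TNFa and 158 FPKM after IL1b. The 2 TLR ligand libraries nearly coincided, as did the 2 cytokine libraries, at a gap of 19-fold. Il1a, its close relative, had 0.161 FPKM untreated, 88.8 FPKM after MALP2, 174 FPKM after CpG, 8.19 FPKM after TNFa and 7.23 FPKM after IL1b, and the gap was 9.76-fold. Il1rn, the secreted antagonist of the IL1 receptor, had 24 FPKM untreated, 1082 FPKM after MALP2, 1387 FPKM after CpG, 433 FPKM after TNFa and 216 FPKM after IL1b. Agonist and antagonist were thus both highest after the TLR ligands, and the gap was smaller for the antagonist, at 2.49-fold.

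Tnf had 6.99 FPKM untreated, 655 FPKM after MALP2, 489 FPKM after CpG, 112 FPKM after TNFa and 182 FPKM after IL1b, so it was above untreated with each agent, TNFa included, and higher with the TLR ligands by 2.68-fold. Csf3, the granulocyte growth factor G-CSF, had 0.0118 FPKM untreated, 19.1 FPKM after MALP2, 11.7 FPKM after CpG, 0 FPKM after TNFa and 0.278 FPKM after IL1b; the TNFa library lists it at 0, so no fold is given against it. Il6, a cytokine of the acute phase, had 0.0326 FPKM untreated, 8.66 FPKM after MALP2, 8.56 FPKM after CpG, 0.161 FPKM after TNFa and 0.818 FPKM after IL1b. Both genes were at or under 1 FPKM without a TLR ligand. Edn1, which encodes the vasoconstrictor endothelin 1, had 0.0662 FPKM untreated, 9.16 FPKM after MALP2, 23.6 FPKM after CpG, 0.116 FPKM after TNFa and 0.0893 FPKM after IL1b, and was close to 0 after either cytokine. Il10, an anti-inflammatory cytokine, had 2.02 FPKM untreated, 18.1 FPKM after MALP2, 75.4 FPKM after CpG, 2.49 FPKM after TNFa and 2 FPKM after IL1b. Il12b, a subunit of the T cell-directing cytokines IL-12 and IL-23, had 0.104 FPKM untreated, 5.26 FPKM after MALP2, 58.8 FPKM after CpG, 1.15 FPKM after TNFa and 0.462 FPKM after IL1b. For both the CpG library was far above the MALP2 library, and the cytokine libraries stayed at 2.49 FPKM or less. Il19 (1.66 and 7.27 FPKM after MALP2 and CpG against 0.105 and 0 FPKM after TNFa and IL1b), Il27 (4.84 and 11.9 FPKM after MALP2 and CpG against 1.43 and 1.35 FPKM after TNFa and IL1b) and its partner subunit Ebi3 (108 and 97.8 FPKM after MALP2 and CpG against 32.2 and 24.6 FPKM after TNFa and IL1b) were also at least 2-fold higher. Members that did not separate included Inhba (1.66 and 2.54 FPKM after MALP2 and CpG against 2.66 and 2.07 FPKM after TNFa and IL1b) and Lif (0.627 and 0.646 FPKM after MALP2 and CpG against 0.573 and 1.66 FPKM after TNFa and IL1b), and Csf1 was lower by a small gap (21.6 and 28.1 FPKM after MALP2 and CpG against 29.6 and 29.9 FPKM after TNFa and IL1b).

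**Figure D2:**
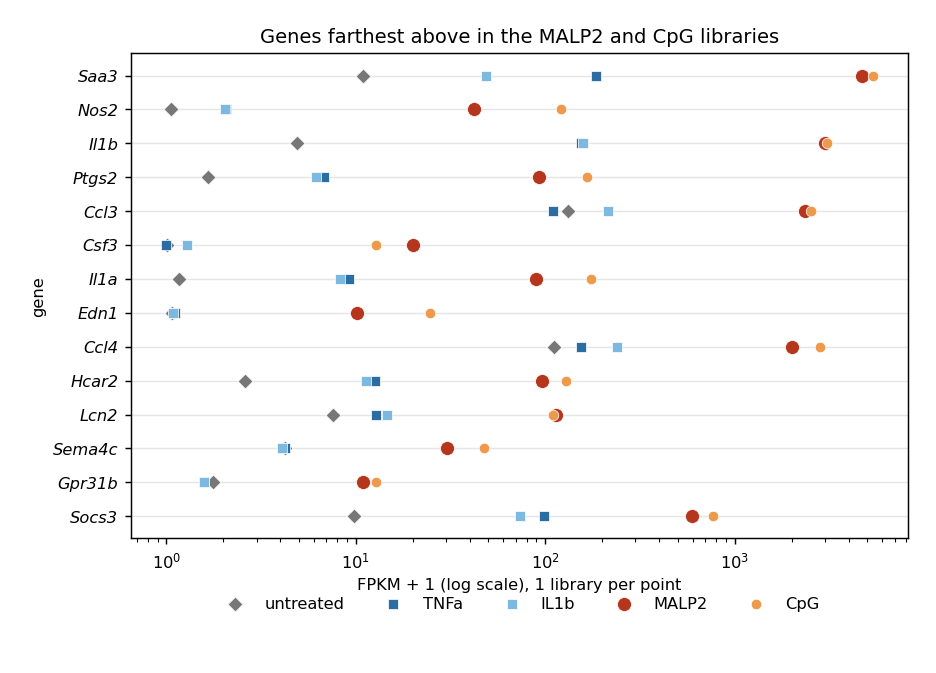
Levels of the 14 protein-coding genes with the widest gap upward among those at 5 FPKM or more in both TLR ligand libraries. The x axis is FPKM + 1 on a log scale with 1 point per library (circles for MALP2 and CpG, squares for TNFa and IL1b, diamonds untreated). In every row the circles lie to the right of the squares, from 4717 and 5358 FPKM against 184 and 47.6 FPKM for Saa3 down to 592 and 768 against 97.6 and 72.9 FPKM for Socs3.

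Chemokine genes divided by member. Of 22 tested, 15 were higher and 2 lower by any gap, beside 23% and 29.9% of all genes. By 2-fold 7 and 0 were, beside 1.19% and 0.255%, with a median difference of 0.65. Ccl4, a chemokine gene next to Ccl3 on chromosome 11, had 109.9 FPKM untreated, 1999 FPKM after MALP2, 2829.5 FPKM after CpG, 153 FPKM after TNFa and 238 FPKM after IL1b, a gap of 8.37-fold. Cxcl2, a neutrophil chemokine, had 2.01 FPKM untreated, 528 FPKM after MALP2, 326 FPKM after CpG, 74.4 FPKM after TNFa and 92.2 FPKM after IL1b, and its neighbour Cxcl1 had 0.663 FPKM untreated, 149 FPKM after MALP2, 96.9 FPKM after CpG, 7.21 FPKM after TNFa and 30.0 FPKM after IL1b. Both were already raised by the cytokines and rose further with the TLR ligands, MALP2 highest. Cxcl3 (80.3 and 117 FPKM after MALP2 and CpG against 34.6 and 14.7 FPKM after TNFa and IL1b) and Ccl12 (121 and 124 FPKM after MALP2 and CpG against 54.1 and 52.5 FPKM after TNFa and IL1b) passed 2-fold too. Ccl5, a T cell chemokine, had 22.8 FPKM untreated, 364 FPKM after MALP2, 781 FPKM after CpG, 126 FPKM after TNFa and 19.5 FPKM after IL1b; it was 2-fold higher even against TNFa but stayed at the untreated level after IL1b. The monocyte chemokines Ccl2 (196 and 184 FPKM after MALP2 and CpG against 111 and 165 FPKM after TNFa and IL1b) and Ccl7 (149 and 159 FPKM after MALP2 and CpG against 61.6 and 126 FPKM after TNFa and IL1b) were high with every agent and less than 2-fold apart. Cxcl10, a chemokine of interferon responses, was among the 2 that were lower, at 99.4 and 191 FPKM after MALP2 and CpG against 318 and 224 FPKM after TNFa and IL1b, and the other was Cxcl14, at 46.6 and 24.7 FPKM after MALP2 and CpG against 72.3 and 116 FPKM after TNFa and IL1b.

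Acute-phase and antimicrobial genes had 11 of 15 higher and 2 lower by any gap, beside 23% and 29.9% of all genes. By 2-fold 6 and 0 were, beside 1.19% and 0.255%, with a median difference of 1.18. After Saa3, Lcn2, which binds bacterial siderophores, had 6.58 FPKM untreated, 113 FPKM after MALP2, 109 FPKM after CpG, 11.8 FPKM after TNFa and 13.6 FPKM after IL1b. On the FPKM + 1 scale its cytokine libraries lay less than 2-fold above untreated, IL1b only just (1.92-fold). Its TLR ligand libraries lay 7.58-fold above the cytokine libraries. Hp, the haemoglobin scavenger haptoglobin, had 4.99 FPKM untreated, 56.2 FPKM after MALP2, 89.7 FPKM after CpG, 16.7 FPKM after TNFa and 7.38 FPKM after IL1b. Cfb, a component of the alternative complement pathway, had 3.87 FPKM untreated, 31.3 FPKM after MALP2, 47.1 FPKM after CpG, 15.1 FPKM after TNFa and 1.79 FPKM after IL1b, just past 2-fold, with TNFa above untreated as well. Cp, the copper carrier ceruloplasmin, was 3.16 and 8.46 FPKM after MALP2 and CpG against 0.614 and 0.56 FPKM after TNFa and IL1b. Saa1 was 4.34 and 5.36 FPKM after MALP2 and CpG against 0.14 and 0.0407 FPKM after TNFa and IL1b, and lies near the related and far more abundant Saa3; whether reads were shared between them was not measured. Lyz1, a lysozyme, was high in every library and slightly lower after the TLR ligands, at 2949 and 2509 FPKM after MALP2 and CpG against 3166 and 3281 FPKM after TNFa and IL1b.

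Genes of iron, zinc and metal binding had 10 of 15 higher and 1 lower by any gap, beside 23% and 29.9% of all genes. By 2-fold 6 and 0 were, beside 1.19% and 0.255%, with a median difference of 0.59. The list holds Lcn2 and Cp as well. The metallothionein Mt2 had 24.8 FPKM untreated, 392 FPKM after MALP2, 654 FPKM after CpG, 86.4 FPKM after TNFa and 51.8 FPKM after IL1b, and Mt1 had 229 FPKM untreated, 816 FPKM after MALP2, 755 FPKM after CpG, 293 FPKM after TNFa and 299 FPKM after IL1b. The 2 genes are adjacent and similar in sequence, and Mt2 showed the wider gap, 4.5-fold against 2.52-fold. The zinc and iron importer Slc39a14 was 205 and 276 FPKM after MALP2 and CpG against 81.5 and 67.1 FPKM after TNFa and IL1b, and the iron transporter Slc11a2 was 134 and 164 FPKM after MALP2 and CpG against 51.1 and 55.2 FPKM after TNFa and IL1b. The iron exporter Slc40a1 was low with all 4 agents, at 1.24 and 2.48 FPKM after MALP2 and CpG against 2.3 and 2.39 FPKM after TNFa and IL1b and 30.0 FPKM untreated, and did not separate the sides.

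Enzymes that make nitric oxide and prostaglandins were represented by 1 member each past 2-fold. In the nitric oxide, itaconate and arginine list 7 of 12 were higher and 1 lower by any gap, beside 23% and 29.9% of all genes. The median difference was 0.71, and 0.20 without the IL1b library. Beside Nos2 (20.3-fold), Acod1, which makes itaconate, was high with all agents (1368 and 1165 FPKM after MALP2 and CpG against 979.7 and 303 FPKM after TNFa and IL1b), and Slc7a2, an arginine importer, had its TNFa level between the TLR ligand levels (50.5 and 88.3 FPKM after MALP2 and CpG against 66.9 and 15.6 FPKM after TNFa and IL1b). In the prostaglandin list 4 of 13 were higher and 3 lower by any gap, beside 23% and 29.9% of all genes, with a median difference of -0.08. Ptgs2, the inducible cyclooxygenase, had 0.655 FPKM untreated, 91.5 FPKM after MALP2, 166 FPKM after CpG, 5.77 FPKM after TNFa and 5.17 FPKM after IL1b, a gap of 13.7-fold. Ptgs1, the constitutive enzyme, was 2.65 and 2.31 FPKM after MALP2 and CpG against 1.96 and 2.96 FPKM after TNFa and IL1b. Of the 2 cyclooxygenases, the inducible one separated the sides by 2-fold and the constitutive one overlapped.

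Inhibitors that limit NF-kB, MAP kinase and cytokine receptor signalling were divided. Of 18 tested, 13 were higher and 2 lower by any gap, beside 23% and 29.9% of all genes, and 7 and 0 by 2-fold, beside 1.19% and 0.255%, with a median difference of 0.98. Socs3, which blocks cytokine receptors that use JAK kinases, had 8.76 FPKM untreated, 592 FPKM after MALP2, 768 FPKM after CpG, 97.6 FPKM after TNFa and 72.9 FPKM after IL1b. Zc3h12a, a nuclease that degrades cytokine mRNAs, had 11.6 FPKM untreated, 157 FPKM after MALP2, 177 FPKM after CpG, 18.1 FPKM after TNFa and 32.1 FPKM after IL1b. Both were above untreated with MALP2 and CpG by more than 8-fold, and the cytokine libraries reached 97.6 and 32.1 FPKM at most. The phosphatase Dusp2 had 1.4 FPKM untreated, 30.8 FPKM after MALP2, 61.3 FPKM after CpG, 6.36 FPKM after TNFa and 6.9 FPKM after IL1b, and Zfp36, which destabilises mRNAs with AU-rich elements, had 50.6 FPKM untreated, 307 FPKM after MALP2, 390.1 FPKM after CpG, 89.2 FPKM after TNFa and 83.1 FPKM after IL1b. Socs1 (10.6 and 22 FPKM after MALP2 and CpG against 3.08 and 1.85 FPKM after TNFa and IL1b), the inactive kinase Irak3 that dampens Myd88 signalling (89.2 and 84.5 FPKM after MALP2 and CpG against 28.4 and 20.4 FPKM after TNFa and IL1b) and Dusp16 (32.1 and 41.2 FPKM after MALP2 and CpG against 15 and 10.6 FPKM after TNFa and IL1b) completed the 7. The ubiquitin-editing enzyme Tnfaip3 lay just under 2-fold, at 162 and 229 FPKM after MALP2 and CpG against 84.2 and 60.8 FPKM after TNFa and IL1b. The phosphatases Dusp4 (30.8 and 28.9 FPKM after MALP2 and CpG against 69.9 and 53.2 FPKM after TNFa and IL1b) and Dusp5 (10.4 and 8.92 FPKM after MALP2 and CpG against 17.4 and 18.3 FPKM after TNFa and IL1b), which act on ERK, were the 2 that were lower.

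Of the 11 NF-kB subunit and inhibitor genes, 9 were higher and 1 lower by any gap, beside 23% and 29.9% of all genes. By 2-fold 2 and 0 were, beside 1.19% and 0.255%, with a median difference of 0.47. Nfkbiz, a nuclear cofactor of NF-kB needed for secondary response genes, had 4.51 FPKM untreated, 118 FPKM after MALP2, 188 FPKM after CpG, 7.15 FPKM after TNFa and 21.5 FPKM after IL1b. The gap was 5.28-fold and the level after TNFa was near untreated. Nfkbia, the inhibitor whose promoter is printed above, had 52.5 FPKM untreated, 625 FPKM after MALP2, 655 FPKM after CpG, 306 FPKM after TNFa and 266 FPKM after IL1b, above untreated with every agent and just past 2-fold between the sides. The subunit gene Rela was nearly level (70.3 and 73.2 FPKM after MALP2 and CpG against 67.6 and 66.1 FPKM after TNFa and IL1b), as was Nfkb2 (127 and 143 FPKM after MALP2 and CpG against 119 and 96.8 FPKM after TNFa and IL1b), and Nfkbie was the 1 that was lower (59.9 and 66 FPKM after MALP2 and CpG against 91.2 and 88.6 FPKM after TNFa and IL1b). Among 28 early response factors, 15 were higher and 3 lower by any gap and 4 and 0 by 2-fold, beside the same shares of all genes. The median difference was 0.25. The 4 were Batf, a partner of Jun proteins (39.7 and 57.1 FPKM after MALP2 and CpG against 7.75 and 6.37 FPKM after TNFa and IL1b), Cebpd (97 and 106 FPKM after MALP2 and CpG against 13.9 and 24.1 FPKM after TNFa and IL1b), Ier3 (189 and 178 FPKM after MALP2 and CpG against 56.6 and 49.3 FPKM after TNFa and IL1b) and Ets2 (244 and 242 FPKM after MALP2 and CpG against 116 and 115 FPKM after TNFa and IL1b). Fos (99.1 and 82.7 FPKM after MALP2 and CpG against 175 and 89.7 FPKM after TNFa and IL1b) overlapped between the sides, and Myc was lower (48.3 and 39.3 FPKM after MALP2 and CpG against 81.1 and 64.8 FPKM after TNFa and IL1b).

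Glycolysis and hypoxia genes had 23 of 26 higher and 0 lower by any gap, beside the 23% and 29.9% of all genes, but 2 passed 2-fold. The median difference was 0.68, and 0.29 without the IL1b library, the lowest library for most of them: TNFa was above IL1b in 25 of the 26, beside 47.7% of all genes. Pfkfb3, the enzyme that makes the activator of phosphofructokinase, had 22.8 FPKM untreated, 194 FPKM after MALP2, 424 FPKM after CpG, 48.9 FPKM after TNFa and 20.8 FPKM after IL1b. CpG gave the highest level, and IL1b left it at the untreated level. Adora2a, an adenosine receptor, had 0.267 FPKM untreated, 15.9 FPKM after MALP2, 15.2 FPKM after CpG, 3.79 FPKM after TNFa and 2 FPKM after IL1b. Slc2a1, the main glucose transporter (489.6 and 441 FPKM after MALP2 and CpG against 326 and 153 FPKM after TNFa and IL1b), Ldha, lactate dehydrogenase (1415 and 1289 FPKM after MALP2 and CpG against 927 and 761 FPKM after TNFa and IL1b), and Tpi1, triose phosphate isomerase (1191 and 1029 FPKM after MALP2 and CpG against 619 and 506 FPKM after TNFa and IL1b), were higher by less than 2-fold. Hif1a, the hypoxia factor, overlapped between the sides (58.3 and 80.1 FPKM after MALP2 and CpG against 89.2 and 50.6 FPKM after TNFa and IL1b).

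**Figure D3:**
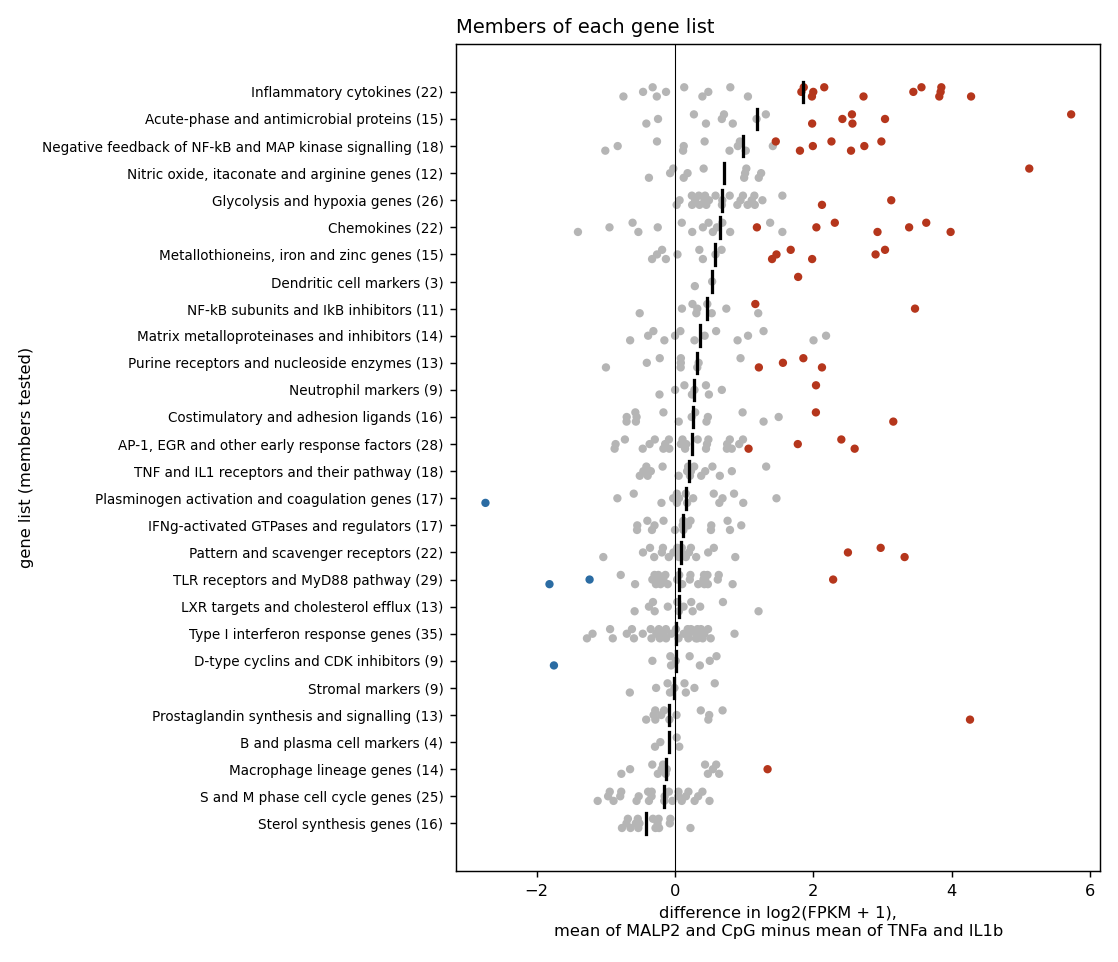
Difference of each tested member of 28 gene lists, with the lists in order of their median (black bar). The x axis is the mean log2(FPKM + 1) of MALP2 and CpG minus that of TNFa and IL1b; red and blue points have a gap of at least 2-fold upward and downward. Cytokine genes lie at the top with a median of 1.84, and sterol synthesis genes at the bottom with -0.42.

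Receptors on the cell surface were a further group. Fpr1, the receptor of bacterial formyl peptides, had 0.46 FPKM untreated, 54 FPKM after MALP2, 44.7 FPKM after CpG, 6.67 FPKM after TNFa and 2.29 FPKM after IL1b, and its neighbour Fpr2 was 17.7 and 16.5 FPKM after MALP2 and CpG against 3.83 and 1.11 FPKM after TNFa and IL1b. The authors' tables give Fpr2 and Fpr3 the same locus coordinates, with separate values. Marco, a scavenger receptor for bacteria, had 0.0638 FPKM untreated, 18.7 FPKM after MALP2, 9.37 FPKM after CpG, 1.21 FPKM after TNFa and 0.493 FPKM after IL1b. These were 3 of the 22 pattern and scavenger receptors, of which 7 were higher and 2 lower by any gap, beside 23% and 29.9% of all genes. Msr1 (168 and 182 FPKM after MALP2 and CpG against 187 and 132 FPKM after TNFa and IL1b) and Trem1 (30.8 and 28.4 FPKM after MALP2 and CpG against 39 and 23.1 FPKM after TNFa and IL1b) overlapped. Hcar2, the receptor of nicotinic acid and ketone bodies, had 1.6 FPKM untreated, 95.6 FPKM after MALP2, 127 FPKM after CpG, 11.6 FPKM after TNFa and 10.4 FPKM after IL1b, a gap of 7.64-fold. Gpr31b, a G protein-coupled receptor, had 0.765 FPKM untreated, 9.93 FPKM after MALP2, 11.7 FPKM after CpG, 0.589 FPKM after TNFa and 0.575 FPKM after IL1b, and Sema4c, a transmembrane semaphorin, had 3.25 FPKM untreated, 29.5 FPKM after MALP2, 46.6 FPKM after CpG, 3.22 FPKM after TNFa and 3.07 FPKM after IL1b. For these last 2 both cytokine libraries stayed at the untreated level.

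Among purine receptors and nucleoside enzymes 4 of 13 passed 2-fold upward and none downward, beside 1.19% and 0.255% of all genes. The 4 were Adora2a, Adora3 (5.36 and 7.58 FPKM after MALP2 and CpG against 1.63 and 1.39 FPKM after TNFa and IL1b), the nucleotide receptor P2ry2 (43.3 and 50.6 FPKM after MALP2 and CpG against 20.2 and 19 FPKM after TNFa and IL1b) and the uridine phosphorylase Upp1 (34 and 32.2 FPKM after MALP2 and CpG against 13.4 and 5.15 FPKM after TNFa and IL1b). Of 16 costimulatory and adhesion genes 8 were higher and 3 lower by any gap, beside 23% and 29.9% of all genes. By 2-fold 2 and 0 were, beside 1.19% and 0.255%. The 2 were Cd38, an enzyme that consumes NAD (16.9 and 17.8 FPKM after MALP2 and CpG against 2.27 and 0.294 FPKM after TNFa and IL1b), and Cd40, a receptor for T cell help (315 and 424 FPKM after MALP2 and CpG against 144 and 54 FPKM after TNFa and IL1b). Cd80 (3.05 and 3.4 FPKM after MALP2 and CpG against 5.13 and 5.43 FPKM after TNFa and IL1b) and Cd86 (13 and 21.2 FPKM after MALP2 and CpG against 23.6 and 26.2 FPKM after TNFa and IL1b), ligands of a costimulatory receptor of T cells, were slightly lower, and Icam1 overlapped (321 and 326 FPKM after MALP2 and CpG against 323 and 301 FPKM after TNFa and IL1b). Matrix metalloproteinases gave no member past 2-fold, beside the same 1.19% and 0.255% of all genes. Mmp13 (115 and 272 FPKM after MALP2 and CpG against 71.9 and 20.0 FPKM after TNFa and IL1b) and Mmp14 (310.4 and 303 FPKM after MALP2 and CpG against 169.9 and 33.5 FPKM after TNFa and IL1b) were higher by smaller gaps. The threshold fell among close values: Nfil3 (gap 1.00) and Cfb (1.01) were just inside it, and Relt (0.98) and U90926 (0.98) just outside.

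The 134 higher protein-coding genes were set beside the untreated library, here and below on the FPKM + 1 scale. In both TLR ligand libraries 113 of them were at least 2-fold above it, against 7.73% of all genes tested. The choice of genes high in those libraries favours this count. Of the 113, 31 were also 2-fold above it in both cytokine libraries, such as Il1b, Ptgs2, Socs3 and Cxcl2. Another 18 were above it in 1 cytokine library, such as Ccl4 and Nfkbiz (IL1b) or Ccl5 and Hp (TNFa), and 64 in neither, such as Ccl3, Edn1 and Sema4c. The FPKM + 1 scale understates the change of low genes, so the 64 are not all without a cytokine response. Nos2 is among the 64, at 1.96-fold and 1.94-fold above untreated after TNFa and IL1b on that scale. The authors' comparisons with untreated called Nos2 changed for both cytokines, and Ccl3, Edn1 and Sema4c for neither. The remaining 21 were not 2-fold above untreated in both TLR ligand libraries. For 6 of these, Btg2, Cd72, Clec4a1, Maf, Rassf4 and Rilpl2, both cytokine libraries were at least 2-fold below untreated. These 6 were the only such genes among the 134 (4.48%), against 6.23% of all genes. The transcription factor gene Maf is an example, with 80.1 FPKM untreated, 58.1 FPKM after MALP2, 63.8 FPKM after CpG, 20.3 FPKM after TNFa and 27.1 FPKM after IL1b. Cd72, an inhibitory receptor, is another, with 686 FPKM untreated, 755 FPKM after MALP2, 616 FPKM after CpG, 235 FPKM after TNFa and 251 FPKM after IL1b. In both genes the TLR ligand libraries lay near untreated and the cytokine libraries low.

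The 19 protein-coding genes lower after the TLR ligands were mixed in the same respect. In both TLR ligand libraries 9 were at least 2-fold below untreated, against 8.15% of all genes tested, a count that the choice of genes low in those libraries favours. For 7 of the 9, Arl4c, Eya1, Fam83f, Hhex, Plk2, Rgs2 and Tlr13, both cytokine libraries stayed within 2-fold of untreated on the FPKM + 1 scale. Rgs2 after IL1b was at the limit, 1.9997-fold below untreated on that scale. Rgs2, an inhibitor of G protein signalling, had 65.4 FPKM untreated, 2.46 FPKM after MALP2, 8.83 FPKM after CpG, 35 FPKM after TNFa and 32.2 FPKM after IL1b, a gap of 3.38-fold. Hhex, a homeobox transcription factor, had 36.5 FPKM untreated, 9.17 FPKM after MALP2, 8.22 FPKM after CpG, 28.1 FPKM after TNFa and 23.6 FPKM after IL1b, and Arl4c, a small GTPase, had 65 FPKM untreated, 12.6 FPKM after MALP2, 15.3 FPKM after CpG, 44.4 FPKM after TNFa and 45.6 FPKM after IL1b. Cxcr4, the receptor of the chemokine Cxcl12, was below untreated in all 4, with 315 FPKM untreated, 4.16 FPKM after MALP2, 11.3 FPKM after CpG, 38.1 FPKM after TNFa and 44.8 FPKM after IL1b. Tmem86a did likewise, with 108 FPKM untreated, 10.7 FPKM after MALP2, 13 FPKM after CpG, 29 FPKM after TNFa and 34 FPKM after IL1b. In these 2 the cytokine libraries lay low and the TLR ligand libraries lower still.

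Against 5.99% of all genes, 5 of the 19 were at least 2-fold above untreated in both cytokine libraries, where the choice of members again favours such a count. Ccnd1, the cyclin of entry into the cell cycle, had 12.2 FPKM untreated, 66.3 FPKM after MALP2, 45.4 FPKM after CpG, 156 FPKM after TNFa and 224 FPKM after IL1b, so all 4 agents raised it and the cytokines most. Cd36 had 18 FPKM untreated, 31.3 FPKM after MALP2, 34.3 FPKM after CpG, 100.0 FPKM after TNFa and 139 FPKM after IL1b, and the ERK phosphatase Dusp6 had 11.5 FPKM untreated, 15 FPKM after MALP2, 12.7 FPKM after CpG, 38 FPKM after TNFa and 31.9 FPKM after IL1b. Chst3, a sulfotransferase of chondroitin, was 1.77 and 2.06 FPKM after MALP2 and CpG against 5.47 and 5.7 FPKM after TNFa and IL1b. Plau was the fifth, and among the 17 plasminogen and coagulation genes it was the 1 past 2-fold. Of these 17, 9 were higher and 4 lower by any gap, beside 23% and 29.9% of all genes. The Plau receptor Plaur (206 and 213 FPKM after MALP2 and CpG against 196 and 155 FPKM after TNFa and IL1b) was instead slightly higher after the TLR ligands. On the FPKM + 1 scale, the other 5 genes were within 2-fold of untreated in at least 1 library of each side: Gcnt1 (3.99 and 4 FPKM after MALP2 and CpG against 10.7 and 13.1 FPKM after TNFa and IL1b), Sgk1 (46.4 and 47.1 FPKM after MALP2 and CpG against 146 and 107 FPKM after TNFa and IL1b), Rgs1 (3.63 and 4.5 FPKM after MALP2 and CpG against 11 and 12.5 FPKM after TNFa and IL1b), Hmga2 (2.26 and 3.67 FPKM after MALP2 and CpG against 9.29 and 18.6 FPKM after TNFa and IL1b) and Tgfbr1, a receptor subunit of TGFb1 (3.32 and 5.26 FPKM after MALP2 and CpG against 12.2 and 15.9 FPKM after TNFa and IL1b). Just inside the threshold were Dusp6 (gap -1.04) and Fam83f (-1.01), and just outside Enc1 (-0.97) and Cgnl1 (-0.97).

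**Figure D4:**
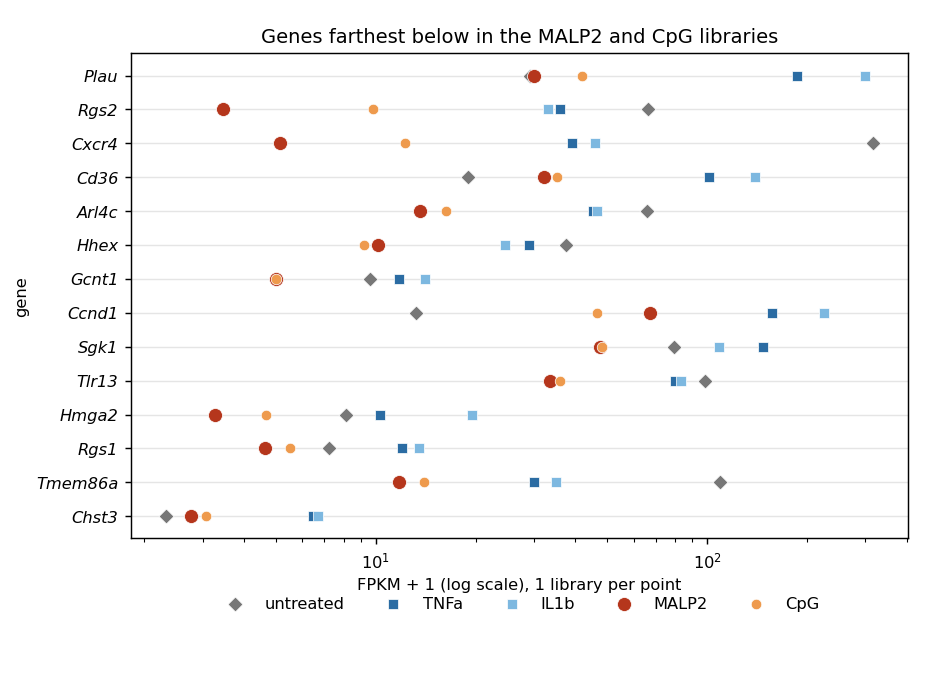
Levels of the 14 protein-coding genes with the widest gap downward among those at 5 FPKM or more in both cytokine libraries. Axes and symbols are FPKM + 1 on a log scale, circles for MALP2 and CpG, squares for TNFa and IL1b, diamonds untreated. The circles lie left of the squares in each row, while the diamond is at the left for Plau and Ccnd1 and at the right for Cxcr4 (315 FPKM) and Tmem86a (108 FPKM).

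The 2 libraries of a side were within 2-fold of each other for most of these genes, though for a smaller share of the higher ones than of all genes tested. MALP2 and CpG lay within 2-fold of each other for 122 of the 134 higher genes (91%) and 17 of the 19 lower ones, against 98.2% of all genes. The 12 exceptions among the higher genes all had CpG above MALP2: Nos2, Edn1, Il10, Pfkfb3, Shisa3, Il4ra, Il12b, Ccl5, Cp, Il19, Il27 and Nfil3. Over all genes tested CpG was 2-fold above MALP2 in 1.12% and MALP2 above CpG in 0.701%. By any amount CpG was above MALP2 in 90 of the 134 (67.2%) against 46.5% of all genes, and MALP2 above CpG in 44 (32.8%) against 52.9%. Il4ra, a receptor chain of IL4, was 379.8 and 788 FPKM after MALP2 and CpG against 111 and 89.4 FPKM after TNFa and IL1b. TNFa and IL1b lay within 2-fold of each other for 115 of the 134 (85.8%) and all 19, against 97.1% of all genes. In 17 TNFa was 2-fold above IL1b (1.63% of all genes), among them Saa3, Ccl5, Cfb, Cd40 and Tnfrsf9 (35.1 and 25 FPKM after MALP2 and CpG against 5.02 and 1.07 FPKM after TNFa and IL1b). In 2, Cxcl1 and Nfkbiz, IL1b was 2-fold above TNFa (1.23% of all genes). By any amount TNFa was above IL1b in 86 of the 134 (64.2%) against 47.7%, and IL1b above TNFa in 48 (35.8%) against 51.9%.

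Some members lie next to each other in the genome. Protein-coding genes with a 2-fold gap that lie within 100 kb of each other include Ccl3 and Ccl4 (13229 bp apart), Il1a and Il1b (54598 bp), Cxcl1 and Cxcl2 (10756 bp), Il10 and Il19 (79772 bp), Saa1 and Saa3 (24825 bp), Mt1 and Mt2 (5522 bp) and Has1 with Fpr1 (21283 bp). Several of these pairs are related genes, and whether they share reads was not measured.

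The IFNg, IL4 and TGFb1 libraries took no part in the choice of members, although they share the untreated control with the other comparisons. Of the 134 higher genes, 57 (42.5%) were at least 2-fold above untreated after IFNg, against 10.2% of all genes. After IL4 22 (16.4%) were, against 9.3%, and after TGFb1 10 (7.46%), against 6.87%. Nos2 was 47.9 FPKM after IFNg and 0.0231 FPKM after TGFb1, and Ptgs2 was 81.6 FPKM after IFNg and 2.88 FPKM after TGFb1. Saa3, at 9.98 FPKM untreated, was 21.3 FPKM after IFNg (2.03-fold higher), 3.5 FPKM after IL4 and 4.38 FPKM after TGFb1. Downward after TGFb1 went 30 of the 134 (22.4%), against 8.22% of all genes, and 117 of the 134 lay below all 4 compared libraries there, against 32.3% of all genes. After IL4 90 of the 134 lay below all 4, against 4047 of 12516 genes, and after IFNg 46, against 4677. The choice of genes high in the TLR ligand libraries favours each of these counts below all 4. Ccl3 was 8.74 FPKM after TGFb1, against 132 FPKM untreated.

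Of the 19 lower genes, 11 (57.9%) were at least 2-fold above untreated after TGFb1, against 6.87% of all genes, and all 19 were above both TLR ligand libraries there, against 44.5%, a count that the choice of genes low in those libraries favours. In 14 of the 19 the TGFb1 library was above all 4 compared libraries, against 33.6% of all genes. The IL4 library was above both TLR ligand libraries in 18 of the 19 and above all 4 in 10, against 5667 and 4259 of 12516 genes. For the IFNg library these counts were 15 and 6, against 4407 and 3133. The choice of genes low in the TLR ligand libraries favours the counts above both of them and above all 4, for each of these agents. Sgk1 was 427 FPKM after TGFb1, Rgs2 179 FPKM, Gcnt1 47.6 FPKM and Cxcr4 322 FPKM, the last close to its untreated 315 FPKM. After IL4 8 (42.1%) were 2-fold above untreated, against 9.3%, and after IFNg 4 (21.1%), against 10.2%. Plau was 384 FPKM after IFNg, 652 FPKM after IL4 and 474 FPKM after TGFb1, so that MALP2 and CpG were the 2 of 7 stimuli that left it near the untreated level.

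**Figure D5:**
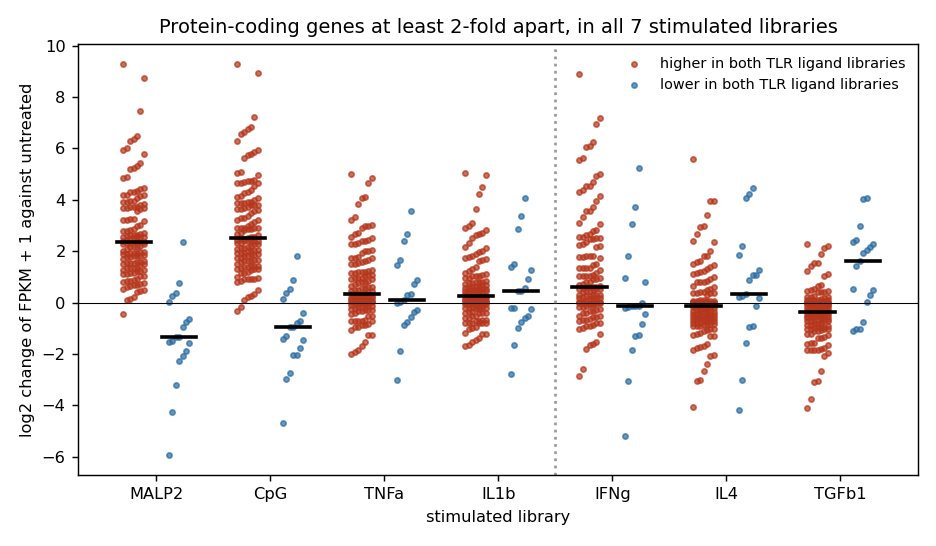
Log2 change of FPKM + 1 against the untreated library for the 134 higher (red) and 19 lower (blue) protein-coding genes in the 7 stimulated libraries, with medians as black bars. The 4 libraries left of the dotted line chose the genes and the 3 to its right did not; after TGFb1 the red median is -0.37 and the blue median 1.64.

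The libraries were checked for what else could differ between them. Macrophage lineage genes were abundant throughout: the 14 tested summed to between 8520.3 FPKM (IL1b) and 9964 FPKM (MALP2), and Csf1r, the receptor of CSF1, was 1439 FPKM untreated, 1271 FPKM after MALP2, 1107 FPKM after CpG, 1407 FPKM after TNFa and 1177 FPKM after IL1b. Neutrophil markers were present at lower levels, with a sum of 317 FPKM untreated, 419 after MALP2, 363 after CpG, 302 after TNFa and 257 after IL1b. Of 9 tested 6 were higher by any gap, beside 23% of all genes, and 1, Csf3r, by 2-fold (56.8 and 78 FPKM after MALP2 and CpG against 20.2 and 11.8 FPKM after TNFa and IL1b). Csf3r had 40.4 FPKM untreated, so its TLR ligand libraries lay within 2-fold of untreated and its cytokine libraries below untreated. The part of neutrophil markers in the differences above was not tested. B cell markers summed to between 60.4 and 236 FPKM, highest untreated, T and NK cell markers to at most 9.57 FPKM (Gzma listed at 0 in all 5), stromal markers to between 52.5 and 62.6 FPKM and erythroid markers to at most 0.503 FPKM. Dendritic cell markers had 3 tested members, with Fscn1, an actin-bundling protein, 2-fold higher (40.0 and 46.2 FPKM after MALP2 and CpG against 17.4 and 7.91 FPKM after TNFa and IL1b) and a sum of 49.4 and 57.2 FPKM after MALP2 and CpG against 27 and 13.1 FPKM after TNFa and IL1b; their part was not tested. In bulk RNA, fewer cells of a type and less RNA per cell cannot be told apart. Absolute depth is unknown, since the tables hold no counts, but the steps between low values give the FPKM of a single read relative to the untreated library. It was 1.44 in MALP2, 1.09 in CpG, 1.25 in TNFa and 1.12 in IL1b, so all 4 were somewhat shallower than the untreated library on this measure.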

How the data were processed

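Poly(A) RNA-seq of 8 libraries of mouse bone marrow-derived macrophages was used, with 5 libraries in the main comparison. Per the submitters' processing notes, the tools were TopHat 1.3.1, Cufflinks 1.2.1 and Cuffdiff 1.2.1 with the mm9 genome. Not given in the sources used here are their options, the strandedness and the number of reads. Reads of genes that overlap, or lie antisense to each other, may therefore be mixed. Per the file headers, the authors' tables give FPKM with lower and upper bounds, for each stimulated library beside the untreated one, and no level of the bounds is named. The deposited Cuffdiff comparisons, with a p-value, a q-value and the authors' significance call per the file headers, served for 1 alternative. Since FPKM is relative to the library, very abundant transcripts lower the values of the others.

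Untreated values differed between the tables by 1 factor per table (1.00 for CpG, 0.982 for TNFa and 0.970 for IL1b, relative to MALP2), and levels were joined by it. Genes with a status other than OK in any of the 4 tables (446 of 36806) were left out. Symbols came from GENCODE release 21 for mouse (31859 of 36806 matched). A gene was tested at 1 FPKM or more in 1 of the 4 libraries, and differences are on log2(FPKM + 1), a scale that understates the change of low genes. Groups came from the labels with 1 library each, so no p-value was computed; a call of 2-fold is a rule of size.

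The genes named are the 4 markers, the 14 widest gaps in each direction among protein-coding genes whose higher side reached 5 FPKM in both libraries, up to 4 members per gene list past 2-fold, 7 receptors and the 2 genes just inside and outside the threshold in each direction. Other list members given as examples, and the gene groups set against untreated, were chosen after their values were seen. The members and the 30 gene lists were chosen with earlier results of these data known. Related neighbours (Saa1 and Saa3, Mt1 and Mt2, Ccl3 and Ccl4, Fpr2 and Fpr3) are uncertain where the counting could split their reads; shared reads were not measured. Motifs were searched in RefSeq promoters on GRCm38.p6 by symbol. The results were recomputed with 0.1 as the pseudocount, with 5 FPKM as the filter or none, with no joining factor, with centring on the median gene, without each library in turn, and by the authors' bounds and call, and 2 chosen after seeing the data, which kept protein-coding genes only or dropped short RNAs. The counting was tested on simulated data. The software was Python 3.11.15 with pandas 2.3.3, numpy 2.4.6 and matplotlib 3.10.9.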

Additional observations from a re-analysis of the deposited data

How the results depend on the processing

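Under the 9 alternatives run for single genes, each gene with a listed difference kept its sign, except Tlr2, Tlr9 and Il1rap, whose sides overlap. For a gene whose sides separate, leaving out a library or changing the pseudocount cannot turn the sign. Those settings are therefore no check on the direction of such genes. Leaving out 1 library, which relaxes the rule, gave 205 to 326 higher and 48 to 180 lower genes at 2-fold, and 3851 to 4898 higher and 5043 to 5506 lower genes at any gap. At 2-fold the higher count moved by more than 1.5 times without MALP2 (266), without CpG (224) or without TNFa (326), and the lower count without CpG (107), TNFa (180) or IL1b (103). A pseudocount of 0.1 gave 64 lower genes. Where the authors' bounds of the sides had not to overlap, 80 higher and 6 lower genes remained at 2-fold, and 100 and 18 at any gap. With the authors' call required in both libraries of a side, 12 lower genes were counted at 2-fold, and 598 higher and 747 lower at any gap. Of 2 alternatives chosen after seeing the data, a restriction to protein-coding genes gave 19 lower genes, and dropping short RNAs gave 21. Centring on the median gene changed the share of higher genes among those with any gap from 43.5% to 46.2%, and no joining factor to 36.4%. Of the values of named genes 638 were labelled the same and 17 moved, mostly those of low FPKM under the pseudocount of 0.1. These labels are a rule of size, since single libraries give no replicate spread. The type I interferon median changed sign with the library left out. No paired analysis was possible because each group has 1 library and the labels carry no replicate numbers. Genes under about 1 FPKM, and all precision beyond the authors' bounds, are limited by the single libraries and their unknown depth.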

Other observations

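Interferon response genes mostly overlapped between TLR ligands and cytokines. Of 35 type I interferon response genes, 4 were higher and 3 lower after the TLR ligands by any gap, and 28 overlapped between the sides, where 47.1% of all genes tested did, with a median difference of 0.01. Within each side they were ordered: CpG was above MALP2 in 34 of 35 and TNFa above IL1b in 35 of 35, against 46.5% and 47.7% of all genes tested. Ifit3, an antiviral protein of this list, was 70.2 FPKM untreated, 21.5 FPKM after MALP2, 44.7 FPKM after CpG, 93.4 FPKM after TNFa and 55.7 FPKM after IL1b. Rsad2, another, was 27.8 FPKM untreated, 16.2 FPKM after MALP2, 42.4 FPKM after CpG, 68.8 FPKM after TNFa and 36.2 FPKM after IL1b. Isg15, a ubiquitin-like modifier, was 109 FPKM untreated, 144 FPKM after MALP2, 191 FPKM after CpG, 186 FPKM after TNFa and 84.9 FPKM after IL1b. The median difference was 0.27 without MALP2, -0.36 without CpG, 0.36 without TNFa and -0.44 without IL1b, so its direction depended on which library was left out. Of 17 IFNg-activated genes, 15 overlapped between the sides and TNFa was above IL1b in all 17.

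Sterol synthesis genes showed the opposite order. Of 16 tested, 1 was higher and 5 lower after the TLR ligands by any gap, beside 23% and 29.9% of all genes. None passed 2-fold, and the median difference was -0.42. MALP2 was above CpG and IL1b above TNFa in all 16, against 52.9% and 51.9% of all genes. Insig1, a feedback regulator of the pathway, was 63.4 FPKM untreated, 55.9 FPKM after MALP2, 38.6 FPKM after CpG, 56.7 FPKM after TNFa and 102 FPKM after IL1b. Among cell cycle genes the subunits of the replicative helicase stood apart in 1 library: Mcm6 was 25.4 FPKM untreated, 13.8 FPKM after MALP2, 16 FPKM after CpG, 22.2 FPKM after TNFa and 50.1 FPKM after IL1b, and Mcm2 was 7.93 FPKM untreated, 3.83 FPKM after MALP2, 4.42 FPKM after CpG, 4.07 FPKM after TNFa and 18.1 FPKM after IL1b. Each of Mcm2 to Mcm7 was highest in the IL1b library of the 4. Of the 25 cell cycle genes tested 2 were higher and 9 lower after the TLR ligands by any gap, beside 23% and 29.9% of all genes. Their median difference was -0.15.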
